A study of Mus musculus with 4 samples.

Results

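Apolipoproteins are the proteins that give plasma lipoprotein particles their structure, and hepatocytes make most of them. In these cells microsomal triglyceride transfer protein loads lipid onto apolipoprotein B to form very-low-density lipoprotein, smaller exchangeable apolipoproteins such as those of the C group and apolipoprotein E then steer lipolysis and uptake, and apolipoprotein A1 accepts cholesterol to build high-density lipoprotein (HDL), where lecithin-cholesterol acyltransferase esterifies it. The 10 genes described here, Apob, Mttp, Apoe, Apoc1, Apoc3, Apoa1, Apoa2, Lcat, Apom and Apoh, were taken by gene symbol from a table of 52192 genes. Each of the 10 symbols occurred on 1 row.

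The libraries came from AML12, an established mouse hepatocyte line, infected with lentivirus carrying a short hairpin RNA (shRNA) against Safb (shSafb, 2 libraries) or a control hairpin (shCtrl, 2 libraries) and collected 5 days later. The product of Safb, scaffold attachment factor B, is a nuclear protein with DNA-binding and RNA-binding domains. Both groups were grown in DMEM/F12 with 10% fetal bovine serum, an ITS supplement and 0.1 μM dexamethasone, and the libraries were strand-specific and depleted of ribosomal RNA. Values are the deposited TPM, a length-scaled share of each library's transcripts, so levels can be compared between genes. TPM holds no read numbers, which leaves the depth unknown and allows no counting interval.

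Safb had 15.8 and 15.02 TPM in the shSafb libraries, against 23.8 and 23.3 TPM in the shCtrl libraries, a log2 change of -0.56 ± 0.07 (SE; limma adjusted p = 0.00411). The 10 hepatocyte markers summed to 13336 and 13194 TPM in shSafb against 9346 and 9305 TPM in shCtrl, with 3 higher, 1 lower and 5 not called among 9 tested. Trf, the transferrin gene, gave 6814 and 6778 TPM of these sums in shSafb against 2453 and 2418 TPM in shCtrl. The other 9 markers summed to 6521 and 6417 TPM in shSafb against 6893 and 6887 TPM in shCtrl, so the sums without Trf were lower in shSafb. Among these 9, Ttr had 2177 and 2189 TPM in shSafb against 2312 and 2248 TPM in shCtrl, while Alb had 122 and 127 TPM in shSafb against 378 and 345 TPM in shCtrl. Ttr was not called, and Alb was the 1 marker called lower. Serpina1a, called higher, had 131 and 130 TPM in shSafb against 81.3 and 77.4 TPM in shCtrl. Fgb, also called higher, had 7.18 and 7.59 TPM in shSafb against 1.57 and 2.49 TPM in shCtrl. Of the tested hepatocyte markers, Trf included, 44.4% were called, beside 44.3% of all tested genes. The macrophage markers Adgre1 and Clec4f, the endothelial markers Cdh5 and Kdr and the stellate cell marker Lrat were at 0 in all 4 libraries. Other markers of the same lists were detected. Mean TPM in shSafb and shCtrl was 64.7 and 117 for Cd14, 11.2 and 2.92 for Stab1, and 1.05 and 1.15 for Des. Small RNA and mitochondrial genes held 31.2% and 31.6% of the TPM in shSafb and 30.8% and 32.7% in shCtrl. Mitochondrial genes alone held 0.319% and 0.343% in shSafb against 0.845% and 0.703% in shCtrl, without overlap, and the part of this difference in the results was not tested. Whether the replicates were separate cultures is not said in the labels, so each p-value reflects the spread between these 4 libraries, which may be technical.

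The comparison of knockdown with control asks which lipoprotein genes differ when Safb is reduced. Apoa1 was lower, Apoc1 and Apom were higher, and the most abundant members, Apoe and Apob, did not pass the test. Thus 3 of the 8 members that reached a mean of 1 TPM passed limma at a Benjamini-Hochberg adjusted p under 0.05, 2 higher and 1 lower. Of these, Apom averaged 0.971 TPM in shCtrl and reached the filter only through its shSafb mean of 3.72 TPM. Across all 13111 genes tested, 21.9% were called higher and 22.4% lower, 44.3% together, beside 37.5% of the members. The median log2 change of the 8 was 0.16, against 0.0016 over all tested genes. Apoa2 and Lcat fell short of the 1 TPM filter and are described by their values.

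**Figure D1:**
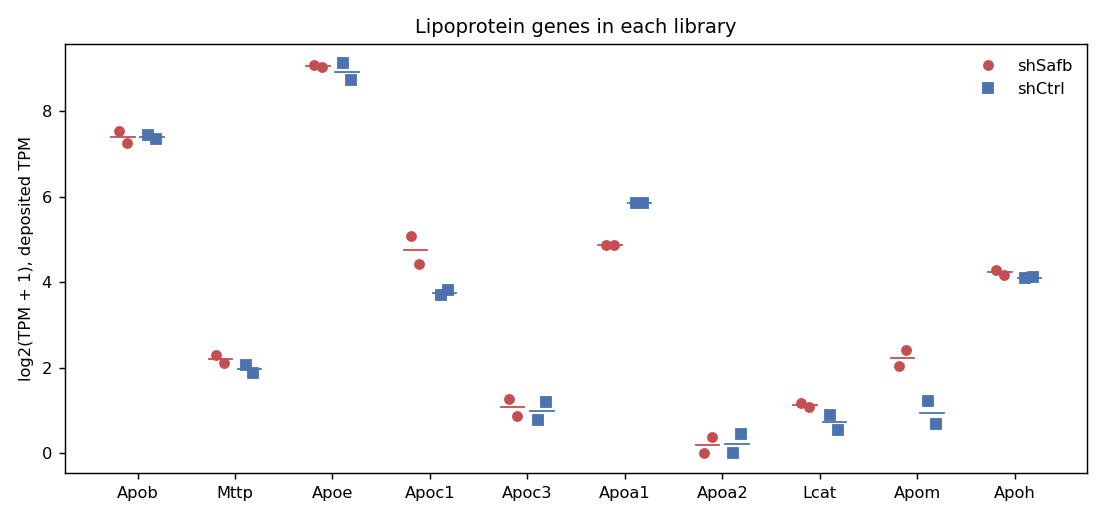
Level of each of the 10 genes in each library, as log2 of the deposited TPM plus 1 (vertical axis); red circles are the 2 shSafb libraries, blue squares the 2 shCtrl libraries, and lines are group means. Apoe and Apob lie highest in both groups, and Apoa1, Apoc1 and Apom have shSafb points clear of their shCtrl points.

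Apoe led with a mean of 533.7 TPM in shSafb and 487 TPM in shCtrl, above 98.6% of the tested genes, and Apob came next. Together these genes held 89.0% and 89.98% of the summed TPM of the 10 members in shSafb and 88.9% and 86.5% in shCtrl. Apoa1 followed them in both groups. In shSafb it was not separated from Apoc1, whose libraries lay on either side of it, whereas in shCtrl Apoa1 was clear of Apoh and Apoc1, which followed in that order without overlap. In shSafb the libraries of Apom and Mttp overlapped, as did those of Lcat and Apoc3. In shCtrl Apoc3 overlapped Apom, and Apom overlapped Lcat.

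Apob encodes the large structural protein of very-low-density and low-density lipoproteins (chr12:7977648-8016835, plus strand; all gene positions are mm10). It had 184 and 152 TPM in shSafb against 172 and 163 TPM in shCtrl, and the control values lay between those of the knockdown. The log2 change was 0.03, with a 95% interval of -0.24 to 0.29 (limma adjusted p = 0.859), so a change past 0.29 in size lies outside the interval. Mttp, which encodes the transfer protein that lipidates apolipoprotein B (chr3:138089854-138144968, minus strand), had 3.95 and 3.32 TPM in shSafb against 3.17 and 2.66 TPM in shCtrl. Both knockdown values were above both control values, but the log2 change of 0.26 ± 0.13 (SE) did not pass (limma adjusted p = 0.175; interval -0.09 to 0.62). Of its exonic bases, 7.36% overlap Trmt10a on the opposite strand, and the sources used here do not give the strand setting of the counting.

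Apoe, whose product is the ligand through which remnants are taken up by hepatocytes (chr7:19696109-19699188, minus strand), had 541 and 527 TPM in shSafb against 553 and 421 TPM in shCtrl. The knockdown libraries lay between the 2 control libraries, which were themselves far apart. The log2 change was 0.17 (limma adjusted p = 0.292; interval -0.14 to 0.48). Without shCtrl replicate 1 it was 0.34 and passed (limma adjusted p = 0.0189), and without shCtrl replicate 2 it was -0.0013 (limma adjusted p = 0.983), so the Apoe value rests on which control library is used.

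Apoc1 encodes a small exchangeable apolipoprotein that hinders lipolysis and uptake of triglyceride-rich particles (chr7:19689481-19692660, minus strand). It had 32.9 and 20.6 TPM in shSafb against 12.03 and 13.1 TPM in shCtrl. Both knockdown libraries were above both controls, though they differed from each other by more than the controls did. Means were 26.8 ± 8.72 TPM in shSafb and 12.6 ± 0.742 TPM in shCtrl (SD, n = 2 each), a 2.13-fold higher level and a log2 change of 1.02 ± 0.23 (SE; limma adjusted p = 0.0240). Leaving out shCtrl replicate 1 ended the call (limma adjusted p = 0.0992), as did leaving out shCtrl replicate 2 (0.0709) and testing all genes with no filter on low values (0.0725). Over 13 alternatives the adjusted p ran from 0.00883 to 0.0992, and without shSafb replicate 1 the log2 change was 0.70. Apoc3, whose product inhibits lipoprotein lipase (chr9:46232933-46235636, minus strand), was near the floor of the tested genes, with 1.43 and 0.840 TPM in shSafb against 0.711 and 1.29 TPM in shCtrl. Its groups overlapped (log2 change 0.11, interval -0.54 to 0.75; limma adjusted p = 0.749).

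Apoa1, the gene of the main HDL protein (chr9:46228580-46230466, plus strand), had 28.2 and 28.1 TPM in shSafb against 56.4 and 56.4 TPM in shCtrl. In deposited TPM, before the scaling used for the test, its replicates were closer than those of any other member in both groups. The groups were far apart. Means were 28.1 ± 0.0423 TPM in shSafb and 56.4 ± 0.0298 TPM in shCtrl (SD, n = 2 each), 2.004-fold lower in the knockdown, with a log2 change of -0.95 ± 0.05 (SE; limma adjusted p = 8.63e-04). The call held under all 13 alternatives, with a log2 change of -0.98 to -0.93. In bulk RNA a smaller share of cells that express a gene cannot be told apart from less RNA per cell. The ratio of Apoa1 to Apob TPM was 0.153 and 0.185 in shSafb against 0.328 and 0.345 in shCtrl.

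Apoa2, the gene of another HDL protein (chr1:171225054-171226379, plus strand), had 0 and 0.294 TPM in shSafb against 0 and 0.367 TPM in shCtrl, so it was hardly detected in either group. Lcat (chr8:105939551-105943382, minus strand) had 1.27 and 1.13 TPM in shSafb against 0.864 and 0.471 TPM in shCtrl. Its knockdown values were above its control values, but when genes from a mean of 0.1 TPM were tested the log2 change of 0.41 did not pass (limma adjusted p = 0.115). Apom encodes a lipocalin that rides on HDL and carries a bioactive sphingolipid (chr17:35128997-35132050, minus strand). It had 3.13 and 4.30 TPM in shSafb against 1.34 and 0.601 TPM in shCtrl, low levels with no overlap. Apom averaged 3.72 ± 0.827 TPM in shSafb and 0.971 ± 0.524 TPM in shCtrl (SD, n = 2 each), 3.83-fold higher, with a log2 change of 1.29 ± 0.24 (SE; limma adjusted p = 0.0142). The call did not hold without shSafb replicate 2 (limma adjusted p = 0.0575), within a range of 0.0121 to 0.0575 over 12 alternatives, and the log2 change was 1.93 with a pseudocount of 0.1. Apoh, whose product is a phospholipid-binding plasma glycoprotein (chr11:108343354-108414396, plus strand), had 18.7 and 17.0 TPM in shSafb against 16.2 and 16.3 TPM in shCtrl. Its knockdown values were slightly above both controls, with a log2 change of 0.15 that did not pass (limma adjusted p = 0.196; interval -0.06 to 0.36). In all, 5 of the 8 tested members had groups that did not overlap, against 74.7% of all tested genes. Apoc1, Apom, Mttp and Apoh were the 4 with shSafb higher (35.5% of all tested genes), and Apoa1 was the 1 with shSafb lower (39.3%).

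**Figure D2:**
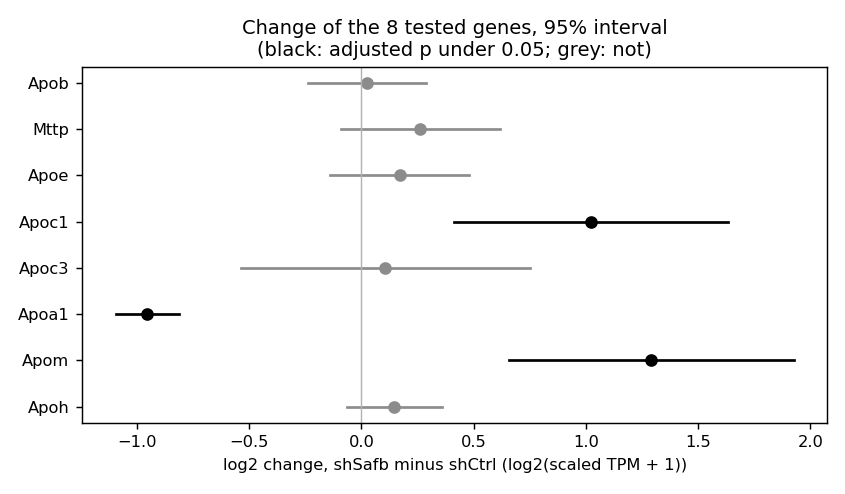
log2 change (shSafb minus shCtrl, on the log2(scaled TPM + 1) scale, horizontal axis) of the 8 tested genes with its 95% interval from limma; black marks adjusted p under 0.05. Apoa1 lies at -0.95 with the narrowest interval, Apoc1 at 1.02 and Apom at 1.29, and the other 5 intervals hold 0.

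By the rule set for likeness, Apom, the called member with the largest change, was compared with 114 tested genes of the wider lists. On profiles of log2(scaled TPM + 1) centred over the 4 libraries, Vldlr (distance 0.34), Sec23a (0.44) and Lpl (0.45) were nearest. With 4 libraries, this measures little more than a rise of similar size.

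Apoc1 and Apoe belong to a gene cluster on mouse chromosome 7 together with Apoc4 and Apoc2. Apolipoprotein C2 is the activator that lipoprotein lipase needs. Within this cluster the largest change was that of Gm44805 (ENSMUSG00000109350), chosen here after its values were seen. This gene is annotated at chr7:19671584-19681423, minus strand, and RefSeq lists it under the synonym Apoc4-apoc2. It had 63.8 and 59.5 TPM in shSafb against 0.830 and 0.916 TPM in shCtrl. Both controls were under the 1 TPM filter, which Gm44805 reached only through shSafb. In both knockdown libraries its levels were close to those of Apoc4. The log2 change of 5.08 ± 0.09 (SE; limma adjusted p = 4.01e-04) was the largest rise among the 13111 tested genes and held under all 13 alternatives (5.03 to 6.01; adjusted p 2.45e-04 to 0.00793). Means were 61.7 ± 3.06 TPM in shSafb and 0.873 ± 0.0603 TPM in shCtrl (SD, n = 2 each).

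Gm44805 joins the first exon of Apoc4 to the exons of Apoc2. Of its 765 exonic bases, 119 are shared with Apoc4 and 646 with Apoc2, and its 3 coding exon parts are identical to those of Apoc2. The first splice junction of each RNA is shown here 5′ to 3′, from GENCODE transcripts on chromosome 7. The end of the first exon is in capitals and the start of the second in lower case.
Apoc4: TGGTCAGCTTTGTAGcatccatgtctacag
Gm44805: TGGTCAGCTTTGTAGgcctgccaccccacc
Apoc2: TGCCACTACATTCAGgtcccagacagcatg
The capitals are the same in Apoc4 and Gm44805, and the lower-case letters tell these RNAs apart. The Apoc2 junction shown joins exons that Gm44805 joins too, so it does not tell Apoc2 from Gm44805. Every exonic base of Gm44805 is shared with Apoc4 or Apoc2. The split of reads between these 3 genes, and with it each of their values, is therefore uncertain.

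Apoc4, which encodes a minor apolipoprotein of very-low-density lipoprotein, had 67.1 and 69.1 TPM in shSafb against 35.4 and 34.7 TPM in shCtrl. It was higher in both knockdown libraries, with a log2 change of 0.96 ± 0.05 (SE; limma adjusted p = 8.09e-04). Apoc2 had 115 and 63.9 TPM in shSafb against 128 and 121 TPM in shCtrl. The knockdown libraries were both below the controls but far apart, and the log2 change of -0.51 did not pass (limma adjusted p = 0.199). Without shSafb replicate 1 the Apoc2 change was -0.93 and passed (limma adjusted p = 0.00887), and without shSafb replicate 2 it was -0.09. Apoc2 and Gm44805 summed, which covers the RNAs annotated with the apolipoprotein C2 coding sequence, gave 178 and 123 TPM in shSafb against 129 and 122 TPM in shCtrl. That sum was higher in 1 knockdown library, while the other lay between the controls. Apoc1 and Apoc2 both had their higher shSafb value in replicate 1, as did most of the members, Apob, Apoe and Mttp among them.

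**Figure D3:**
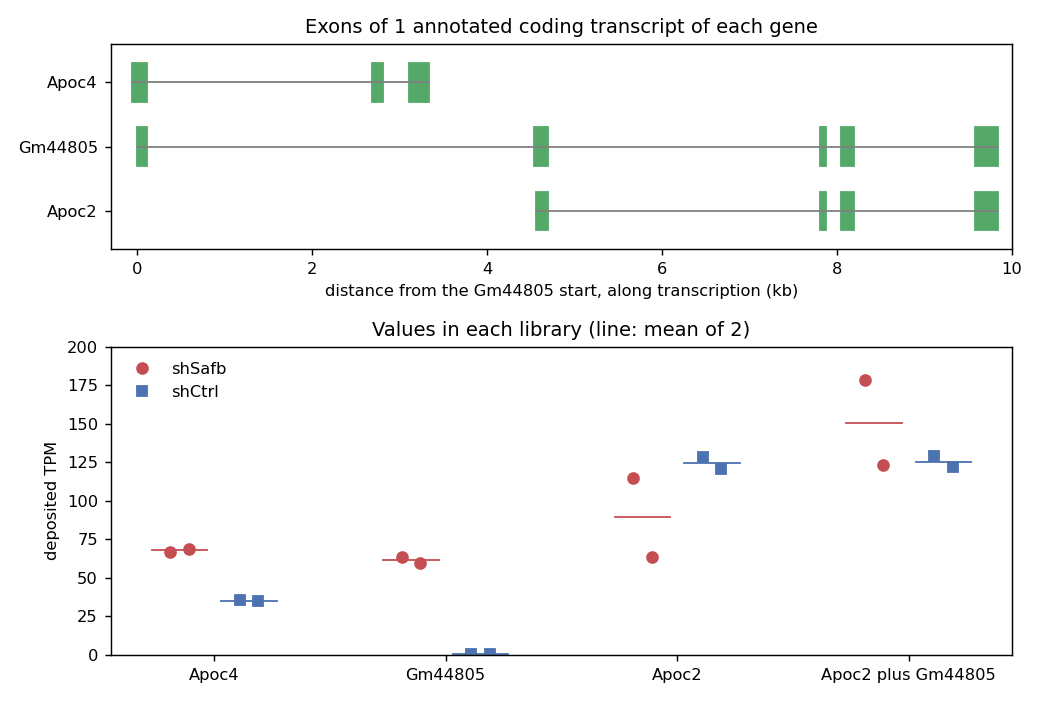
Top, exons (green) of 1 annotated coding transcript of Apoc4, Gm44805 and Apoc2 by distance from the Gm44805 start in kb; bottom, deposited TPM in each library for the 3 genes and for Apoc2 plus Gm44805, with red circles for shSafb, blue squares for shCtrl and lines for means. Gm44805 shares its first exon with Apoc4 and the rest with Apoc2, and stands near 60 TPM in shSafb against under 1 TPM in shCtrl.

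Promoter letters were read for the genes with the clearest differences, Apoa1 and the pair Apoc4 and Gm44805, which have a common RefSeq start, and for Apoe as a neighbour that did not pass. The windows run from 250 to 51 bases before the annotated start (RefSeq, GRCm38.p6), 5′ to 3′, and capitals mark matches to the motifs searched.
Apoa1, chr9:46228380-46228579, plus strand: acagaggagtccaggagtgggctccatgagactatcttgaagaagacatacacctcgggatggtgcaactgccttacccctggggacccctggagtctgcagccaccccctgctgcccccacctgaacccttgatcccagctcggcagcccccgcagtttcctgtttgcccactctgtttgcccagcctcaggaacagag
Apoc4 and Gm44805, chr7:19681511-19681710, minus strand: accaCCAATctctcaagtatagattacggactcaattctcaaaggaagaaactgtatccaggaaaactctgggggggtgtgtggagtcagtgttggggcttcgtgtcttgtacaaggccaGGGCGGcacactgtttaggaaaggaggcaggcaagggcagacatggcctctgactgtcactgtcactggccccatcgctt
Apoe, chr7:19699239-19699438, minus strand: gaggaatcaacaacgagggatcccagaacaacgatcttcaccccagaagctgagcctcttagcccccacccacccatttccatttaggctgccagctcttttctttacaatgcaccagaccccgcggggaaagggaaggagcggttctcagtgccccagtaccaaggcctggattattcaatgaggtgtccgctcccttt
In each window 6 motifs were searched on both strands, and their frequency was counted in 32841 promoter windows of the same length. The longest, CAAAGTNCA, is a form bound by HNF4 and was found in 0.944% of those windows. The nuclear receptor half-site was searched as AGGTCA, which 11.4% of the windows held. A TATA box was searched by the letters TATAAA, which occurred in 9.14%. For the box bound by nuclear factor Y the letters were CCAAT, found in 28.4%. A GC box was searched for with the letters GGGCGG, found in 24.6%. The E-box form used was CACGTG, found in 4.34%. The window shared by Apoc4 and Gm44805 held the nuclear factor Y box and the GC box, which did not overlap, while the Apoa1 window and the printed Apoe window held none of the 6. RefSeq gives Apoe 2 further starts inside the gene, whose windows are not printed, and the TATA box letters occurred in 1 of them, on both strands. A match is a description of the letters only. Bases closer to the start than 51 were not searched, so a motif there, such as a TATA box, would be missed. Of the 10 members, 8 were in the promoter table, which does not list Apoc1 and Apoc3.

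Around the Apoe cluster, 10 further tested genes lay within 100 kb. Of these, 6 were called higher and 0 lower, with a median log2 change of 0.34. Over all tested genes, 21.9% were called higher and 22.4% lower. The 6 include Gm44805, whose exonic bases are each shared with Apoc4 or Apoc2. Besides Gm44805, Bcam, encoding a cell adhesion molecule, rose by 0.58, Nectin2, encoding another, by 0.44, Relb, encoding an NF-kB subunit, by 0.43, Clasrp by 0.35 and Tomm40, encoding a mitochondrial import receptor subunit, by 0.34 on the log2 scale. Tomm40 is the nearest gene on the far side of Apoe, which itself did not pass. Near Apoa1 on chromosome 9, Apoc3 did not pass, and Apoa4 and Apoa5 were at 0 in both shSafb libraries and at 0.125 to 0.210 TPM in shCtrl. Of the 3 other tested genes within 100 kb of that cluster, Sik3, encoding a salt-inducible kinase, was higher (log2 change 0.53), Bud13 was lower (-0.57) and Zpr1 was not called (-0.12). Over the wider list of genes flanking the members, 10 of 28 tested were higher and 6 lower, 57.1% called beside 44.3% of all tested genes. That list holds Apoc4, among the 10 higher, and Apoc2, which did not pass. Nutf2, a nuclear transport factor gene, had the largest fall in it (log2 change -1.06, limma adjusted p = 0.00113).

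**Figure D4:**
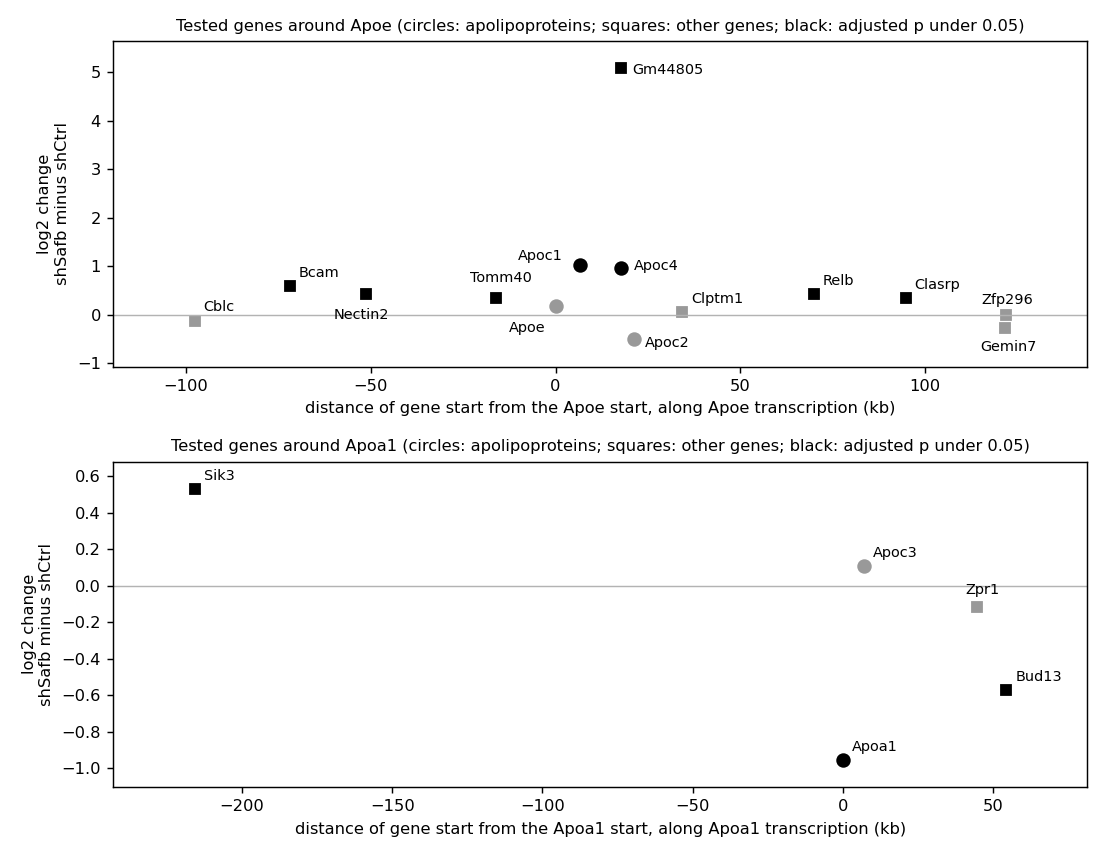
log2 change (shSafb minus shCtrl, vertical axis) of the tested genes within 100 kb of the Apoe cluster (top) and the Apoa1 cluster (bottom) by distance of each gene's start in kb; circles are apolipoprotein genes, squares other genes, and black marks adjusted p under 0.05. Gm44805 stands at 5.08 beside Apoc1 and Apoc4 near 1, while Apoa1 is the lowest point of its region at -0.95.

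Other parts of the lipoprotein pathway moved in both directions, as did all tested genes, of which 21.9% were called higher and 22.4% lower. Of 15 further apolipoprotein and related genes, 4 were tested, with 1 higher (Apoc4) and 1 lower, and Apod, Saa1 and Saa2 were at 0 in all libraries. Clu, encoding clusterin, also called apolipoprotein J, was the most abundant of them at 3008 and 2791 TPM in shSafb against 3559 and 3235 TPM in shCtrl. Its fall was small (log2 change -0.20, limma adjusted p = 0.0461), and the call was lost under 9 of 13 alternatives, including without each of the 4 libraries (adjusted p 0.0614 to 0.229; 0.0391 to 0.229 over all 13).

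Among 26 tested genes of particle assembly and secretion, 5 were higher and 9 lower, with a median log2 change of -0.06. That is 53.8% called, beside 44.3% of all tested genes. Creb3l3, encoding a membrane-bound transcription factor of hepatocytes that controls triglyceride metabolism, had 6.21 and 6.82 TPM in shSafb against 20.8 and 19.8 TPM in shCtrl (log2 change -1.48, limma adjusted p = 8.63e-04). It was the largest fall in this group, with no overlap. Sec23a, a subunit gene of the COPII coat that carries cargo out of the endoplasmic reticulum, had 20.6 and 21.3 TPM in shSafb against 9.03 and 8.64 TPM in shCtrl (log2 change 1.18, limma adjusted p = 8.87e-04). Vmp1, encoding an endoplasmic reticulum membrane protein needed for lipoprotein release, fell by 0.48 on the log2 scale, and Tmem259, encoding membralin, fell by 0.67.

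Of 11 tested genes that remodel particles in plasma, 2 were higher and 5 lower, 63.6% called beside 44.3% of all tested genes. Lpl, the lipoprotein lipase gene, had 17.9 and 19.1 TPM in shSafb against 10.2 and 8.36 TPM in shCtrl (log2 change 0.96, limma adjusted p = 0.00302). Angptl8, encoding a regulator of that lipase, had 20.7 and 20.01 TPM in shSafb against 6.10 and 8.84 TPM in shCtrl (log2 change 1.38, limma adjusted p = 0.00583). Gpld1, encoding a phospholipase D found on HDL, was called lower (-0.71, limma adjusted p = 0.0157), a call lost without any 1 of the 4 libraries (adjusted p 0.0515 to 0.0757; 0.00535 to 0.0757 over 12 alternatives).

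Among receptors and their regulators, 7 of 13 tested genes were higher and 3 lower, with a median log2 change of 0.28. That is 76.9% called, beside 44.3% of all tested genes. Mylip, encoding a ubiquitin ligase of lipoprotein receptors, rose by 1.10, Lrp8, encoding a receptor of apolipoprotein E, by 1.26 and Vldlr by 1.06 on the log2 scale. Sdc1, encoding syndecan 1, was among the 3 lower genes (log2 change -1.23, limma adjusted p = 8.86e-04). It had 55.9 and 62.8 TPM in shSafb against 142 and 143 TPM in shCtrl. Lsr, encoding the lipolysis-stimulated lipoprotein receptor, had 63.6 and 53.2 TPM in shSafb against 142 and 103 TPM in shCtrl (log2 change -1.01, limma adjusted p = 0.00958).

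Cholesterol efflux genes included the transporter that hands cholesterol to apolipoprotein A1. Abca1 had 8.45 and 8.87 TPM in shSafb against 17.7 and 16.8 TPM in shCtrl, close to 2-fold lower like Apoa1 (log2 change -0.89, limma adjusted p = 0.00176). Cyp27a1, the sterol 27-hydroxylase gene, had 13.5 and 15.4 TPM in shSafb against 27.1 and 27.7 TPM in shCtrl (log2 change -0.86, limma adjusted p = 0.00286). Abca7 was called higher by 0.32 (limma adjusted p = 0.0216), which did not hold without any 1 of the 4 libraries (adjusted p 0.0624 to 0.105; 0.0181 to 0.105 over 13 alternatives). The other 4 of 7 tested genes were not called, so 42.9% were called beside 44.3% of all tested genes.

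Among 27 tested transcription factors that act on these genes in liver, 7 were higher and 5 lower, 44.4% called beside 44.3% of all tested genes. Foxa3, a forkhead factor gene, had 116 and 114 TPM in shSafb against 44.2 and 41.3 TPM in shCtrl (log2 change 1.43, limma adjusted p = 5.31e-04). Cebpb rose by 0.86 and Nr5a2, encoding an orphan nuclear receptor that acts in bile acid and HDL metabolism, by 0.86 on the log2 scale. Srebf2, the gene of the factor that activates sterol synthesis, fell to 18.0 and 18.5 TPM in shSafb, against 31.1 and 26.8 TPM in shCtrl (log2 change -0.61, limma adjusted p = 0.00504). Hnf4a, a main activator of apolipoprotein genes in hepatocytes and one of the marker genes, had 157 and 162 TPM in shSafb against 169 and 164 TPM in shCtrl, a log2 change of -0.03 with an interval of -0.14 to 0.08 (limma adjusted p = 0.547).

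**Figure D5:**
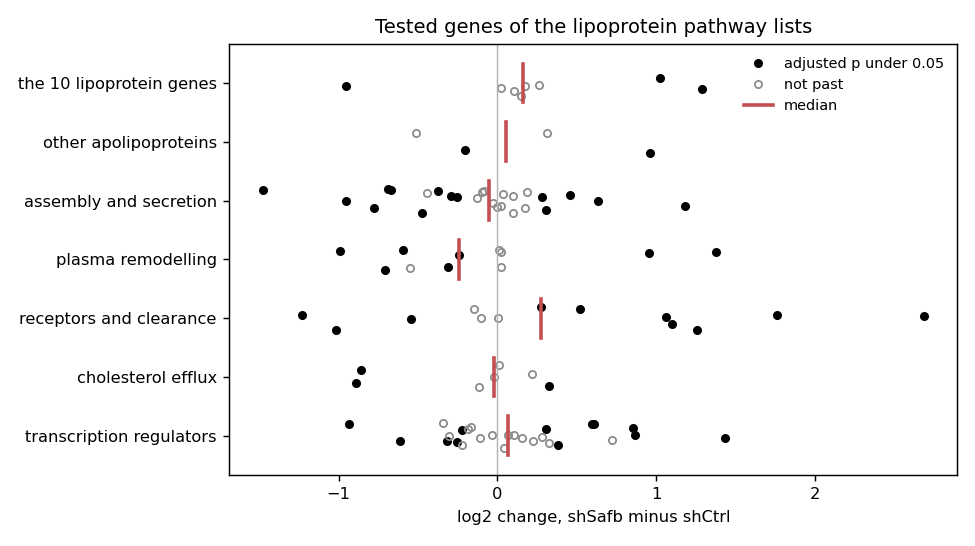
log2 change (shSafb minus shCtrl, horizontal axis) of the tested genes in each pathway list; filled black points passed adjusted p under 0.05, open grey points did not, and red bars are medians. The receptor and clearance list has the highest median, 0.28, and the 8 tested members run from -0.95 to 1.29 with a median of 0.16.

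Of the marker lists of other cell types, those of macrophages, endothelial cells and cholangiocytes had summed levels that did not overlap between the groups. The 7 macrophage markers summed to 66.6 and 68.6 TPM in shSafb against 122 and 117 TPM in shCtrl. Of these sums Cd14 gave 63.8 and 65.5 TPM in shSafb and 119.98 and 115 TPM in shCtrl. Csf1r, the other tested macrophage marker, was called higher (log2 change 1.08, limma adjusted p = 0.00852). It had 1.92 and 1.72 TPM in shSafb against 0.239 and 0.450 TPM in shCtrl. Both controls were under the 1 TPM filter, which Csf1r reached only through shSafb. The 6 endothelial markers summed to 9.91 and 12.6 TPM in shSafb against 3.01 and 3.11 TPM in shCtrl. Of these sums Stab1 gave 9.89 and 12.5 TPM in shSafb and 2.89 and 2.95 TPM in shCtrl. Stellate and fibroblast markers summed to 2.69 and 3.32 TPM in shSafb and 2.91 and 2.86 TPM in shCtrl, which overlapped. The 6 markers of cholangiocytes and progenitors summed to 1514 and 1579 TPM in shSafb against 1676 and 1642 TPM in shCtrl, with Krt19 higher and Spp1, Sox9 and Cftr lower. Cftr averaged 0.694 TPM in shSafb and reached the filter only through its shCtrl mean of 1.68 TPM. The part of these other cell types in the lipoprotein results was not tested.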

How the data were processed

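The authors deposited 1 TPM value per gene and library, 2 shSafb and 2 shCtrl; the build was mm10 and the tools DESeq2, HTSeq, HISAT2 and StringTie, per the submitters' processing notes, while versions, roles and annotation are not given in the sources used here. Group and replicate come from each title, per the labels. The 6 identifiers on more than 1 of the 52200 rows were summed. Positions come from GENCODE mouse release 21 (GRCm38), in which 52045 of the table's 52192 identifiers were found. Mia3 and Tdrd15, 2 genes of the wider lists, were not analysed here.

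The 13111 genes averaging 1 TPM or more over the libraries were scaled by the median of ratios (factors of 0.991 to 1.03), and log2(scaled TPM + 1) was fitted with limma 3.58.1 in R 4.3.3 (group as the only term, trend on intensity, 2 residual degrees of freedom and 2.61 from the prior). Tests were two-sided, with Benjamini-Hochberg adjustment over all tested genes and a threshold of 0.05. Log2 changes understate those of low genes. Printed levels are the deposited TPM. An exact permutation of 2 against 2 libraries cannot go below p = 0.333 and was not used. The fit was tested on simulated data. Near-identical copies of the members were searched with BLAST 2.17.0 (at least 90% identity over 100 bases): besides the overlap of Mttp with Gm43691, none was found. Tables and plots were made with matplotlib 3.10.9, numpy 2.4.6 and pandas 2.3.3 in Python 3.11.15.

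Members and lists were chosen with earlier results of these data known. Named with values are the 10 members, Safb, in each other list up to 4 called genes with the smallest p and every called gene with a log2 change past 1, and up to 2 where none was called; Gm44805, Apoc2, Hnf4a, the other neighbours within 100 kb and the marker genes lie outside this rule and were picked after their values were seen. Some genes that the rule names are not reported here.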

Additional observations from a re-analysis of the deposited data

How the results depend on the processing

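The 13 alternatives changed the pseudocount, the low-value filter, the scaling, the variance trend, the replicate block and the libraries; a fold of at least 1.5 was also required for the counts of calls. Of the 487 gene values recomputed, 459 kept direction and side of the threshold, 21 lost the call, 2 gained it and 5 reversed. The reversed values all belonged to members that were not called: Apob was -0.0002 with no scaling and -0.11 without shSafb replicate 1, Apoc3 was -0.10 without shSafb replicate 1 and -0.12 without shCtrl replicate 1, and Apoe was -0.0013 without shCtrl replicate 2; with single libraries left out these changes ran from -0.11 to 0.17 for Apob, -0.12 to 0.33 for Apoc3 and -0.0013 to 0.34 for Apoe. The cause was not tested. Of the members, 2 were higher; this became 1 with no filter (Apoc1 lost) and 1 with a filter at a mean of 5 TPM, by which Apom was not tested, and ran from 1 to 2 when a library was left out (without shCtrl replicate 1, Apoe was called and Apoc1 was not). The 1 lower member, Apoa1, was called each time (1 to 1). Over all genes, 1754 to 2151 were higher and 1970 to 2161 lower with a library left out, and 1303 higher and 1408 lower with a fold of 1.5 also required. With the replicate block, 2 members were higher and 1 lower, and 2540 genes were higher and 2686 lower. Across genes, replicate differences in the groups correlated at -0.0641, so hardly any shift shared by replicate number was seen. This value cannot tell whether libraries with the same replicate number were prepared together. Depth is unknown, and members under about 2 TPM are the least certain. These are Apoc3, Lcat and Apoa2, and in shCtrl also Apom (1.34 and 0.601 TPM).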
